A study of Mus musculus with 2 samples.

Results

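The Hoxa cluster genes Hoxa2, Hoxa3, Hoxa4, Hoxa5, Hoxa7, Hoxa9, Hoxa10, Hoxa11 and Hoxa13 were compared between the distal and the proximal side of organoids made from mouse limb mesenchyme. They were taken by symbol from a table that lists 13916 protein-coding genes. Of the 9 genes, 7 had a row. Hoxa3 and Hoxa4 had no row and count as not detected under the selection rule, and the neighbouring Hoxa6 had no row either.

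The organoids were grown from limb mesenchymal cells of mouse embryos of genotype Slc:ICR, in medium with Fgf8b and Wnt3a for 48 h and collected at day 2, and both groups share this genotype, medium and time. Photo-isolation chemistry uses ultraviolet light to select the areas of a section whose cDNA is read. It gave a distal group of 5 regions and a proximal group of 5 regions, with the barcoded regions of a side pooled into 1 library. The regions came from 5 organoids of 4 cultures, the age of the embryos is not given in the sources used here, and the labels do not tie a region to an organoid. The p-values below are the authors', treat the regions as replicates and may be too small where regions share a culture, and a difference between sides cannot be told apart from a difference between the 2 libraries.

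Hox genes encode homeodomain transcription factors and lie in clusters, where the order of the genes along the chromosome follows the order of their expression domains along the body and the limb. In the developing limb Hoxa9 and Hoxa10 are known for the upper limb segment, Hoxa11 for the forearm segment, and Hoxa13 for the hand plate at the tip. In the mouse limb bud the domains of Hoxa11 and Hoxa13 are known to be largely separate.

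Promoter sequences are shown for Hoxa10, Hoxa11 and Hoxa13, the neighbouring members with the largest differences in opposite directions among those with over 5 mean normalized counts. Each is the 250 bases before the most upstream transcription start of the gene from RefSeq on GRCm38.p6. The windows are on the minus strand and read 5′ to 3′, with every CpG site in capitals. Other starts of a gene were not examined, so a window need not be the promoter used in these cells. They lie at chr6:52240855-52241104 for Hoxa10, chr6:52245811-52246060 for Hoxa11 and chr6:52260881-52261130 for Hoxa13.
Hoxa10: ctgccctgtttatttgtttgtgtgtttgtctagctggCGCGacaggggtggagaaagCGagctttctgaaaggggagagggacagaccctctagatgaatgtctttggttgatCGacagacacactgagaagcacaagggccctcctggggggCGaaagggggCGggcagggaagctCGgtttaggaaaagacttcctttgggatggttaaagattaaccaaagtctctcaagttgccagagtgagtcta
Hoxa11: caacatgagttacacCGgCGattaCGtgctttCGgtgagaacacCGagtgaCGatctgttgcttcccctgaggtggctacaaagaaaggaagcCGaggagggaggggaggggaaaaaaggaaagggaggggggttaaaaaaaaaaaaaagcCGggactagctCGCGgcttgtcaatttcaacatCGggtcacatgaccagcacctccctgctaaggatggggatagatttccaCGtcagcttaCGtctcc
Hoxa13: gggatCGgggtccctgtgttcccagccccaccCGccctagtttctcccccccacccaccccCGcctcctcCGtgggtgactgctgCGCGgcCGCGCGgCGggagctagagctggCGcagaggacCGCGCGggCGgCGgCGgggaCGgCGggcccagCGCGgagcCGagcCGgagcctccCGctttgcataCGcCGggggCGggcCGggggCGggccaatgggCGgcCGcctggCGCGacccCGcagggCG

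The Hoxa13 window held 35 CpG sites and was 80.0% G and C. The Hoxa11 window held 13 sites at 52.0% G and C, and the Hoxa10 window 7 sites at 51.6%. Over 32851 mouse promoter windows of the same length the median was 6 sites and 52.4% G and C, and 2.97% of windows held at least as many sites as that of Hoxa13. None of 6 short motifs, searched on both strands, occurred in the 3 windows. They were TATAAA, found in 12.4% of all windows, TTTATNG (a core bound by posterior Hox factors, 9.81%), TGACAG (a MEIS core, 15.9%), CTTTGAT (a TCF/LEF core, 3.21%), CCGGAA (an ETS core, 12.0%) and CACGTG (an E-box, 6.02%). On the other strand TTTATNG reads CNATAAA, which can overlap TATAAA. The absence of a match says only that these letters are not in these windows.

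Along the cluster, the values were positive at the Hoxa13 end, negative from Hoxa11 to Hoxa5, and positive for Hoxa2, which had few counts. In the authors' deposited table the log2 change of distal over proximal was 0.56 for Hoxa13, -2.34 for Hoxa11, -0.83 for Hoxa10, -0.33 for Hoxa9 and -0.78 for Hoxa5. Called here means that the adjusted p of the authors' deposited table was under 0.05, which held for none of the 7 genes and for 0.977% of all listed genes. At an unadjusted p under 0.05 there were 4 of the 7, Hoxa5, Hoxa10, Hoxa11 and Hoxa13, against 6.07% of all genes. Depth sets which genes can pass, and among the 5 members with a mean of at least 5 normalized counts the number was 4, against 10.2% of the 5929 genes above that mean. Hoxa11, with a mean of 5.26, passed this limit through its proximal level of 8.78, beside 1.73 in distal. The limit was set after seeing the data, and the share is not one for genes at the depth of each member, so the 2 numbers are only a description. The median log2 change of the 7 was -0.78, beside 0.07 for all genes.

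**Figure D1:**
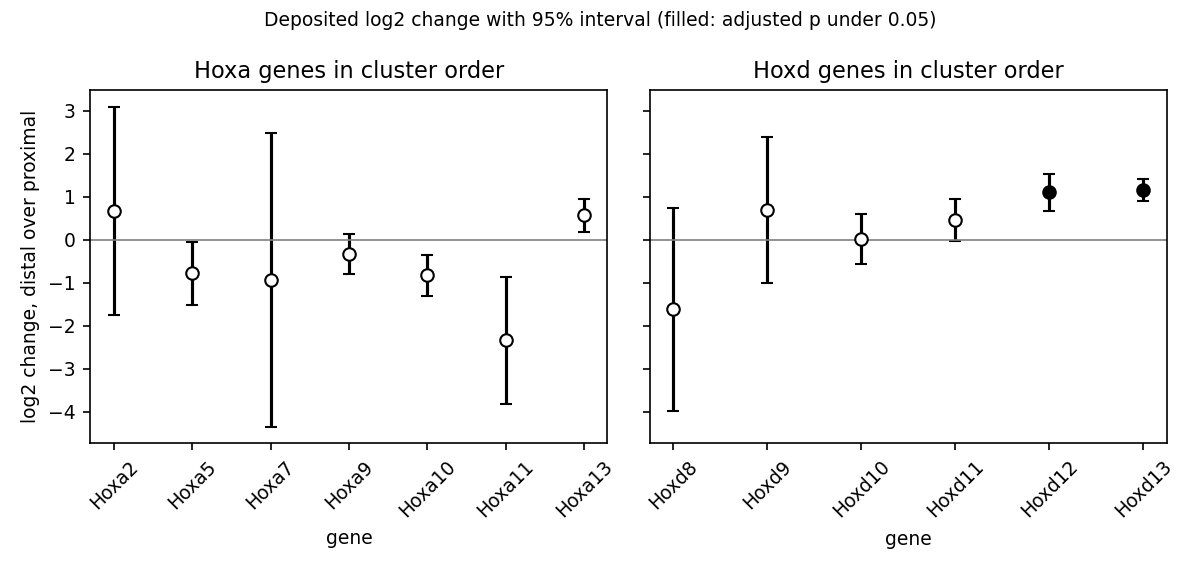
Log2 change of distal over proximal in the authors' deposited table for the Hoxa genes (left) and the Hoxd genes (right), in cluster order. Points are estimates, bars are 95% intervals from the deposited standard errors, and filled points have an adjusted p under 0.05. Hoxa13 lies above 0 and Hoxa11 below it, and Hoxd12 and Hoxd13 are the filled points.

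The posterior member Hoxa13 (ENSMUSG00000038203, chr6:52257694-52260880 on the minus strand of GRCm38 in GENCODE M21, as for the other members), a factor required for digits, was the member with a positive value and more than a few counts. Its mean and log2 change in the authors' deposited table correspond to 64.2 normalized counts per distal region and 43.4 per proximal region, or about 188 distal and 419 proximal counts before normalization. The proximal regions were sequenced more deeply, so the side with fewer counts has the higher level. The authors' deposited table gave Hoxa13 a log2 change of 0.56 (SE 0.20), unadjusted p = 0.00449 and adjusted p = 0.255. Its 95% interval ran from 0.18 to 0.95, a 1.48-fold difference at the estimate. Among the 3757 genes with a mean of at least 10, Hoxa13 ranked 215 from the distal end, and 94.3% of them had a lower log2 change.

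Hoxa11 (ENSMUSG00000038210, chr6:52242106-52245810), known for the forearm bones, differed most in size. Its counts in each region could be read from the deposited values. The search covered sets of whole counts whose distal part lay near that implied by the log2 change. Of 220 such sets that gave the deposited mean, 1 also gave the log2 change and standard error. The regions are numbered here from the most to the least deeply sequenced on each side, and these numbers are not those of the labels. The 5 proximal regions held 15, 14, 23, 10 and 20 counts, and the 5 distal regions 0, 2, 1, 2 and 0 counts. Divided by the size factors, the proximal regions stood at 6.20, 6.33, 11.8, 6.38 and 13.3 normalized counts and the distal regions at 0, 2.86, 1.79, 3.92 and 0. Every proximal region was above every distal region, and 2 of the 5 distal regions had no count.

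The mean over regions was 8.80 ± 3.46 (SD, n = 5 regions) in proximal and 1.71 ± 1.74 (SD, n = 5 regions) in distal. Among the 854 genes with a mean from 1 to 1.6, read from the mean alone, 3.4% had values apart in this direction. In the other direction 1 gene did. These genes are less deeply covered than Hoxa11, so the share is not a rate for genes at its level. The authors' deposited table gave Hoxa11 a log2 change of -2.34 (SE 0.75), unadjusted p = 0.00192 and adjusted p = 0.144. The 95% interval ran from -3.82 to -0.86, and the estimate is a 5.06-fold lower level in distal. The log2 ratio of the means over regions was -2.36, and from -2.92 to -2.04 without each region in turn. A single distal count was worth up to 3.04 normalized counts, and the distal level of Hoxa11 rests on 5 counts.

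Exons of Hoxa11 share 800 of 2287 bases with Hoxa11os, an antisense RNA on the other strand, in GENCODE M21. Whether the authors' counting used strand is not given in the sources used here. Without it, reads of Hoxa11 and Hoxa11os that lie within the shared bases cannot be told apart. The other members with shared exonic bases on the opposite strand were Hoxa7, with 586 of 2876 bases shared with Hoxaas3, and Hoxa3 and Hoxa4, which had no row.

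**Figure D2:**
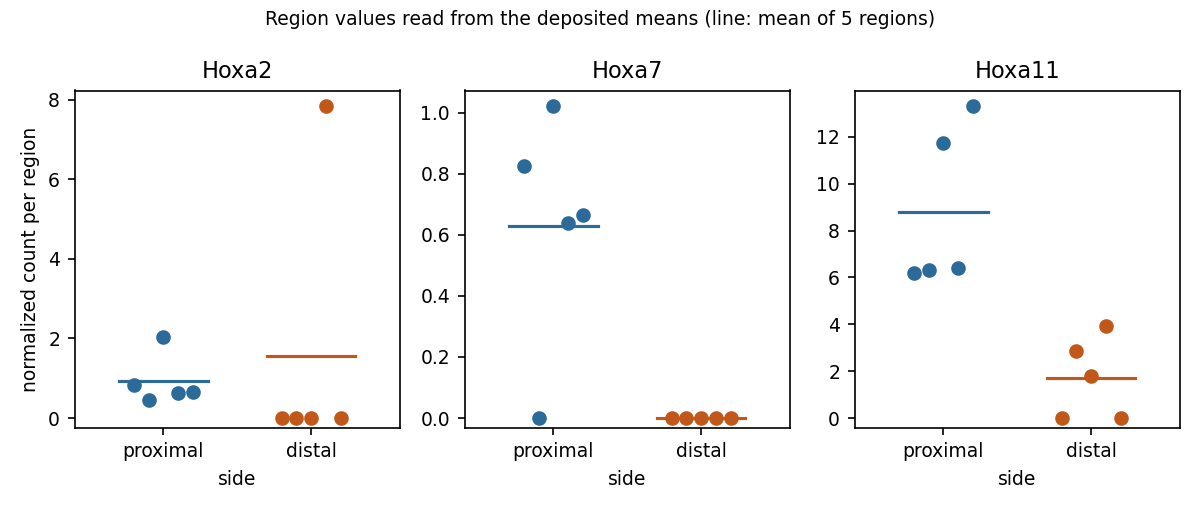
Normalized counts per region for Hoxa2, Hoxa7 and Hoxa11, read from the deposited values, with each point a region and each line the mean of 5 regions. The proximal Hoxa11 values run from 6.20 to 13.3 and the distal values from 0 to 3.92, while a single distal region holds all distal counts of Hoxa2.

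Hoxa10 and Hoxa9 are neighbours known for the upper limb segment. Hoxa10 (ENSMUSG00000000938, chr6:52231197-52240854) had the most counts of the members, at a mean of 62.8 normalized counts, which corresponds to 45.3 per distal and 80.4 per proximal region, or about 133 distal and 776 proximal counts. The authors' deposited table gave Hoxa10 a log2 change of -0.83 (SE 0.24), unadjusted p = 0.000594 and adjusted p = 0.0609. Its 95% interval ran from -1.30 to -0.36. At its standard error a log2 change of 0.84 in size would have matched the weakest call, beside the 0.83 measured. Of the genes with a mean of at least 10, 2.69% had a lower log2 change. It passed the 0.05 limit at an adjusted p of 0.0320 after centring on the median of all genes. It also passed at 0.0192 when only genes whose mean was 10 or more were adjusted together, and at 0.0405 with a mean of 1 or more. It did not pass after centring on genes above the median mean, at 0.0943, or with adjustment over all listed genes, at 0.0586. The median of all genes, 0.07, includes genes with 1 proximal count and no other, which the authors' deposited table places at 1.19. The median of genes above the median mean was -0.02.

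Hoxa9 (ENSMUSG00000038227, chr6:52223100-52231089) had a mean of 38.0, with 33.7 normalized counts per distal region and 42.3 per proximal region. The authors' deposited table gave Hoxa9 a log2 change of -0.33 (SE 0.24) and adjusted p = 0.991. The interval, from -0.80 to 0.14, holds 0 and leaves differences of up to 0.80 towards proximal.

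Of the anterior members, only Hoxa5 was covered by more than a few counts. Hoxa5 (ENSMUSG00000038253, chr6:52201754-52204587), known for the neck and upper chest skeleton, had a mean of 11.7, with 8.58 normalized counts per distal region and 14.8 per proximal region, or about 25.1 and 142 counts. The authors' deposited table gave Hoxa5 a log2 change of -0.78 (SE 0.38), unadjusted p = 0.0376 and adjusted p = 0.813. The interval ran from -1.52 to -0.04 and its upper end is close to 0.

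**Figure D3:**
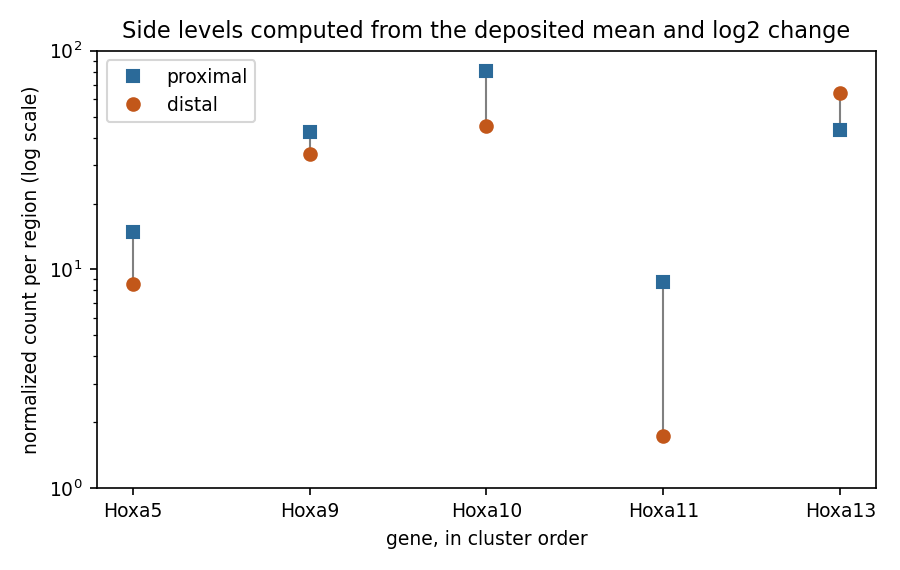
Normalized counts per region on the distal (circles) and proximal (squares) side for the 5 Hoxa genes with a mean of at least 5, on a log scale, computed from the deposited mean and log2 change. Hoxa13 stands at 64.2 in distal and 43.4 in proximal, and the other genes are lower in distal. Levels are not divided by gene length, so they compare sides and not genes.

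Hoxa7 (ENSMUSG00000038236, chr6:52214491-52221854), known for the trunk skeleton, had 6 counts in all, read from its mean. The proximal regions held 2, 0, 2, 1 and 1 counts and the distal regions none. No distal count allows up to 3 counts over the distal regions, a level of 1.02 normalized counts, which is above the proximal level of 0.631. No difference was detectable at this depth, and the authors' deposited table gave Hoxa7 -0.93 (SE 1.74) on the log2 scale.

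Hoxa2 (ENSMUSG00000014704, chr6:52162417-52164831), known for the second pharyngeal arch and the hindbrain, had 13 counts, likewise read from its mean. The proximal regions held 2, 1, 4, 1 and 1 counts. All 4 distal counts lay in the fourth deepest distal region, which stood at 7.84 normalized counts while the other distal regions stood at 0. In the authors' deposited table Hoxa2 stood at 0.68 (SE 1.24) on the log2 scale, which rests on 1 region, whereas all 5 proximal regions had a count. Hoxa2 shares 267 of 1775 exonic bases with Gm28308, a gene on the same strand that had no row. How reads in the shared bases were counted is not given in the sources used here.

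**Figure D4:**
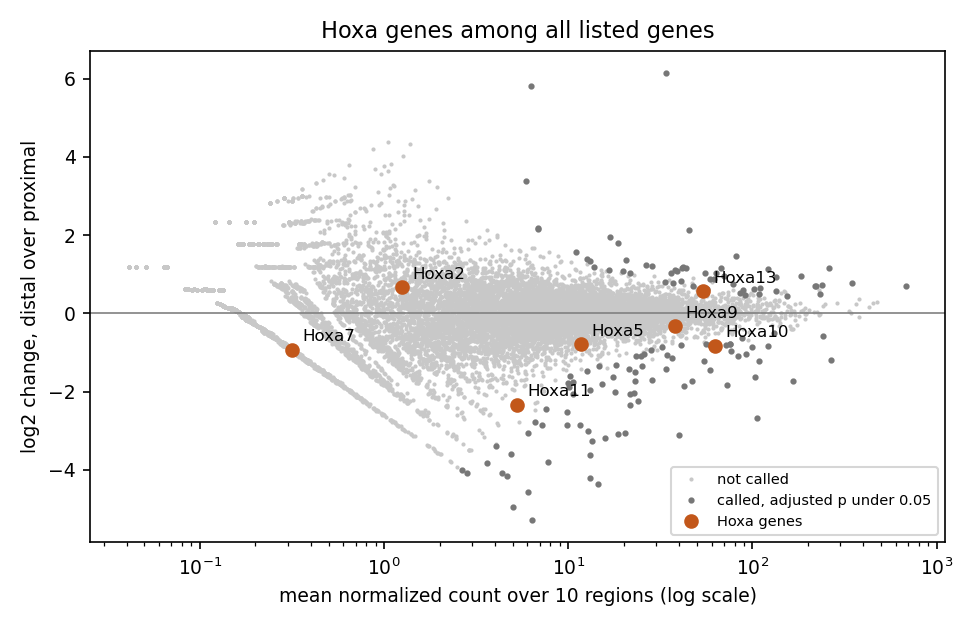
Log2 change of distal over proximal against the mean normalized count (log scale) for all listed genes in the authors' deposited table, with called genes in dark grey and Hoxa genes as large labelled points. Hoxa13 at 53.8 and Hoxa10 at 62.8 normalized counts lie on opposite sides of 0, and Hoxa2 and Hoxa7 lie among genes with few counts.

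The members were next compared with each other, by the difference of 2 log2 changes with a 95% interval from both standard errors. Both genes of a pair were measured in the same regions and their covariance is unknown, so the intervals are descriptions without a p. Hoxa13 exceeded Hoxa11 by 2.90 (1.38 to 4.43) and Hoxa10 by 1.39 (0.78 to 2.00) on the log2 scale. It exceeded Hoxa5 by 1.35 (0.51 to 2.18) and Hoxa9 by 0.89 (0.03 to 1.75 with the standard errors added). These 4 intervals stayed above 0 with the standard errors added, the widest they can be. A shift common to all genes cancels in such a difference. Of the 21 pairs, 6 had an interval off 0, and the other 2 were Hoxa11 against Hoxa9, at -2.01 (-3.56 to -0.46), and Hoxa11 against Hoxa2, at -3.01 (-5.85 to -0.18), the latter not with the standard errors added. Hoxa11 minus Hoxa10 was -1.51 with an interval from -3.06 to 0.04, so these neighbours did not differ beyond their errors.

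The Hoxd cluster, whose posterior genes act with those of the Hoxa cluster in the limb, holds paralogues of the same groups. Of the 6 Hoxd genes in the table, 2 were called, Hoxd12 and Hoxd13, both higher in distal, where 0.395% of all genes were. The authors' deposited table gave Hoxd12 a log2 change of 1.10 (adjusted p = 0.000108) and Hoxd13 one of 1.16 (adjusted p = 2.29e-14), while Hoxd10 stood at 0.02. Hoxa13 minus Hoxd13 was -0.59, with an interval from -1.06 to -0.12. For group 11 the difference was larger, since the authors' deposited table had Hoxd11 at 0.46 (adjusted p = 0.991), and Hoxa11 minus Hoxd11 was -2.80 (-4.35 to -1.24). Hoxa10 minus Hoxd10 was -0.85 (-1.60 to -0.10) and Hoxa9 minus Hoxd9 was -1.01 (-2.77 to 0.75). With the standard errors added, only the interval of group 11 stayed off 0 among these 4 pairs. Hoxd9 rests on 15 proximal and 7 distal counts. The Hoxb and Hoxc clusters had 1 gene each in the table, Hoxb1 and Hoxc4, with 1 proximal count apiece.

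TALE homeodomain proteins of the Meis, Pbx and Pknox families bind DNA together with Hox proteins. Of these 9 genes, all in the table, Pbx3 was called, higher in proximal, where 0.582% of all genes were. Pbx3 stood at 8.29 normalized counts per distal and 34.9 per proximal region, and the authors' deposited table gave it a log2 change of -2.08 (SE 0.47), adjusted p = 0.00212. The 3 Meis genes had 3 counts or fewer on both sides. Their log2 changes, 1.19, 0.62 and 0.62, give no direction, since 1 proximal count alone stood at 1.19 in the authors' deposited table. The median log2 change of the list was 0.05, and these 3 were among its 5 positive values, beside 4 negative ones.

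Genes linked to Hoxa11 or Hoxa13 in limb work, a list of 10 signalling and patterning genes, had 9 in the table and none called. On the log2 scale of the authors' deposited table Gli3, a Hedgehog pathway factor, stood at 0.19 (SE 0.12) and Epha7, an Eph receptor, at 0.22 (SE 0.30). These were the 2 with the highest means. Picked after their values were seen, because their 95% intervals lay off 0, Shox2 stood at -3.49 (-5.61 to -1.38), Grem1 at -2.41 (-4.61 to -0.21) and Bmp2 at 0.71 (0.13 to 1.30) in the authors' deposited table, and none was called. Shox2 and Grem1 rest on few distal counts, about 1.42 and 2.05 as computed from the mean and log2 change. The list had 4 positive and 5 negative values and a median of -0.42. Of 21 chromatin regulators of Hox clusters, Polycomb and Trithorax proteins and Ctcf, none was called, and the median was 0.03. The authors' deposited table placed the Polycomb genes Ezh2 at 0.30 (SE 0.19) and Suz12 at 0.43 (SE 0.22).

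Of 6 genes that flank the cluster, none was called. The authors' deposited table placed Tax1bp1 at 0.60 (SE 0.22, adjusted p = 0.299) and Hibadh at 0.80 (SE 0.26, adjusted p = 0.161), both on the log2 scale. Of the 6 genes 3 had a positive and 3 a negative log2 change, with a median of 0.08.

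Of 11 limb mesenchyme markers all were in the table, 10 of them with a mean of at least 5. Of these markers 3 were called higher in distal, Msx1, Lhx2 and Sox9, and 1 higher in proximal, Tbx5, while 6 of the 11 had a negative log2 change and the median was -0.09. Their summed level was 1491 normalized counts per distal and 1057 per proximal region, of which Sox9 gave 842 and 522. Of 16 skeletal muscle markers 15 had a row, 14 had a negative log2 change and 5 were called, all higher in proximal, beside 0.582% of all genes called in that direction. These 5 were Actc1, Myl1, Myog, Tnnt1 and Acta1, and the other 10 were not called. The summed level of the 15 was 14.4 normalized counts per distal region and 130 per proximal region, of which Actc1 gave 8.27 and 71.5. Myf6 had no row, and Pax7, which marks muscle stem cells, had 3 counts or fewer on both sides. The part of muscle cells in the lower distal values of Hoxa11, Hoxa10 and Hoxa5 was not tested. Summed levels were at most 2.33 normalized counts on either side for surface ectoderm and endothelium and at most 4.26 for macrophages and for nerve, and none of 7 globin genes had a row, nor had the epithelial keratins Krt5, Krt8 and Krt18. In such pooled regions, fewer cells of a type and less RNA per cell cannot be told apart.

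Depth differed between the sides. The size factors summed to 2.93 in distal and 9.65 in proximal, which correspond to 46991 to 118978 counts per distal region and 214774 to 345649 per proximal region over the listed genes. By the adjusted p of the authors, 136 of the listed genes were called.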

How the data were processed

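Values come from the authors' deposited comparison of distal with proximal, 1 line for each protein-coding gene, with 1 distal and 1 proximal library of 5 regions each behind it. The mean is a signal in normalized counts that the authors averaged over all regions. The authors fitted the log2 change and its standard error, and the score is their ratio per the file headers. The deposited p-value and adjusted p are the authors'. The builds mm10 and GRCm38 are named in the submitters' processing notes, and the aligner and counting are not given in the sources used here.

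Size factors were read here from steps of the lowest means shared by at least 20 genes. Region counts were accepted where 1 set gave the mean within 1e-09, for means up to 1.6, or, for Hox genes with means up to 6, also the log2 change within 1e-04 under a negative binomial model whose dispersion gave the standard error. In the second case only sets whose distal part lay near that implied by the log2 change were searched. No count model was used as a test here, and every p comes from the deposited values. The count reading was tested on simulated data with Python 3.11.15, numpy 2.4.6 and scipy 1.17.1. Above that, side levels were computed from the mean and log2 change. Intervals are 95% Wald intervals, and counting error alone sets the limit of 3 counts for a side without counts.

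Called means an adjusted p under 0.05. All members were described, with called genes and the 2 highest means of each list, and group 9 to 13 Hoxd genes, except that some items the rule names are not reported here. Members and lists were chosen with earlier results of these data known. Alternatives were other thresholds, centrings and adjustments, and added standard errors. Leaving out a region and the mean of at least 5 were added after seeing the data.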

Additional observations from a re-analysis of the deposited data

Results flagged for a closer look

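Hoxa2 stood out in single regions. In the fourth deepest distal region it stood at 7.84 normalized counts, from 4 counts, while the other 4 distal regions stood at 0. In the third deepest proximal region it stood at 2.04 normalized counts, also from 4 counts, with the other proximal regions between 0.452 and 0.827. Each lay farther from its neighbours than 0.710 of the range, the limit for 5 values. The limit is meant for continuous values, of which about 1 in 20 groups passes it by chance, and that rate does not hold for counts this sparse. With 4 regions at 0 any count in the other region passes, so the limit says nothing about the distal value. The cause was not tested.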

How the results depend on the processing

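The number of Hoxa genes called stayed at 0 with a threshold of 0.01, with centring on genes above the median mean, and with adjustment over all listed genes. It was 1, Hoxa10 each time, with a threshold of 0.1, when all genes were centred on their median, and when p was adjusted among genes whose mean was 10 or more, or 1 or more. The number of all genes called was 89 at a threshold of 0.01 and 128 to 161 under the other alternatives. Centring subtracted 0.07 or -0.02 from every log2 change and changed the sign of none of the 7 genes. The difference of Hoxa10 from Hoxd10, -0.85, and that of Hoxa13 from Hoxd13, -0.59, had intervals that reached 0 when standard errors were added. Without each region in turn, the log2 ratio of the region means of Hoxa11 ran from -2.92 to -2.04, beside -2.36 with all regions. Counts computed from the mean and log2 change gave 5.08 distal and 84.7 proximal counts for Hoxa11, beside 5 and 82 read per region. For Hoxa7 they gave 0.635 distal counts where 0 were read. No paired analysis was possible because the deposited values are 1 comparison per gene. Region numbers are shared between sides in the labels, but whether they mark pairs from the same organoid is not given. Depth limits the distal side most.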
